A study of Mus musculus with 9 samples.

Results

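Antioxidant enzymes of the glutathione, peroxiredoxin and thioredoxin systems were followed across 3 segments of the mouse spinal meninges. The set held every gene whose symbol begins with Gsta, Gstm, Gstp, Gstt, Gstk, Gsto, Mgst, Gpx or Prdx, together with Cat, Sod1, Sod2, Sod3, Nqo1, Txn1, Txn2, Txnrd1, Txnrd2, Gclc, Gclm, Gsr, Srxn1 and Nfe2l2. These were 55 of the 22013 genes in the deposited table, and none was chosen by its level. The study asked how fibroblasts differ between the segments C, T and L, and 3 RNA-seq libraries were made from each. All 9 libraries came from freshly collected, untreated primary cells of mouse spinal meninges. The labels call the cells fibroblasts and the tissue spinal cord. The labels do not spell out the letters, and they give no strain, age or sex. They do not say whether the replicates were separate animals, pools or cultures, so the p-values reflect only how far these libraries spread, which may be technical.

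Glutathione is a thiol tripeptide made in a pair of steps, of which the first, catalysed by the glutamate-cysteine ligase subunits Gclc and Gclm, limits the rate. Glutathione peroxidases use it to reduce peroxides, glutathione S-transferases attach it to electrophiles, and glutathione reductase (Gsr) recycles the oxidised form with NADPH. Peroxiredoxins reduce peroxides with a reactive cysteine that thioredoxin restores, and thioredoxin reductase recharges thioredoxin with NADPH. Nfe2l2 encodes Nrf2, a transcription factor that Keap1 marks for degradation in resting cells and that activates many of these genes in stressed ones through a DNA element called the antioxidant response element. Nrf2 is controlled largely through the stability of its protein, which was not measured here.

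A form of the core of that element was searched for in the promoter windows of the genes, because many of them moved together between segments. The letters searched were TGACNNNGC, where N is any base, on both strands, in windows of 250 bases before to 50 bases after each start site from RefSeq (build GRCm38.p6). No other motif was searched, so overlap with other motifs was not examined. Runs with TGAG in place of TGAC were not counted, and they stand, for example, in the windows of Gstp1, Gstp2 and Srxn1. The counts below therefore cover the searched letters only and are not a full count of the element. A window was found for 46 of the 55 genes. Of the 38 tested genes with a window, 10 (26.3%) held the core, against 16.9% of the 9779 tested genes and 14.0% of all 27025 genes with a window. Counted by window, the core was in 10 of the genes' 59 windows (16.9%) and in 12.4% of all 32851 windows. Among the 10, 6 were lower in L than in C (Gclm, Gsta3, Prdx1, Sod1, Srxn1 and Txnrd1), 3 were higher (Gstm7, Mgst1 and Nfe2l2) and 1, Gstm5, did not pass the test. Over all 44 tested members 27 (61.4%) were lower and 8 (18.2%) higher in L than in C, and over all tested genes 25.2% and 24.4%. Stretches around the core are shown for 4 genes that fell and for 2 that rose, to set both directions side by side. Each is written 5′ to 3′ on the strand of the gene, with the core in capitals, and reads as the reverse complement where the core lies on the opposite strand.
Gclm (chr3:122245393-122245461, + strand): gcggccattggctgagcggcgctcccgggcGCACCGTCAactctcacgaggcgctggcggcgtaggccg
Prdx1 (chr4:116685436-116685504, + strand): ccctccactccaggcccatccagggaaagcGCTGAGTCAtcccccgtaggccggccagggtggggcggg
Srxn1 (chr2:152105522-152105573, + strand): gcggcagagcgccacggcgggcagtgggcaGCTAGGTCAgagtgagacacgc
Txnrd1 (chr10:82859084-82859152, + strand): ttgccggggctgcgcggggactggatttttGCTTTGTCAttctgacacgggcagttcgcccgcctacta
Mgst1 (chr6:138140441-138140509, + strand): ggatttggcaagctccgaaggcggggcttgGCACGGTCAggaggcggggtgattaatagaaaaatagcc
Nfe2l2 (chr2:75704865-75704913, - strand): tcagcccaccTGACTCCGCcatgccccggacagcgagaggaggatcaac
The core started 134 bases before the start site in Gclm, 133 in Prdx1, 92 in Txnrd1, 56 in Mgst1 and 240 in Nfe2l2, and 29 bases after it in Srxn1. Txnrd1 and Mgst1 have further start sites, whose windows did not hold the core. A match is a run of letters, not a measured binding site.

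Between 15652558 and 25204310 estimated counts were assigned to genes per library, and 12057 to 12305 genes reached a TPM of 1 (a level corrected for transcript length and library total). Replicates differed by more than counting noise in all 9 pairs (chi-square divided by its degrees of freedom, 3.77 to 20.4), most of all for T replicates 1 and 2. The fibroblast markers Col1a1, Col1a2, Col3a1, Pdgfra, Dcn and Lum summed to 3296 to 3544 TPM in C, 4588 to 4903 in T and 5126 to 5211 in L, nearly all of it from the 3 collagen genes, while Pdgfra was at 3.04 to 4.06 TPM in C, 21.7 to 24.2 in T and 6.41 to 7.87 in L. Markers of other cell types were present at sums far below this collagen-led sum, and they differed between segments. Outside the collagens, Dcn was the highest fibroblast marker in C, at 49.6 to 54.6 TPM, and Lum was at 2.80 to 3.12 there. Most of the sums that follow were above these levels in C. The share of fibroblasts in the libraries therefore cannot be read from the sums. Schwann cell markers (8 of 9 tested) summed to 190 to 196 TPM in C, 46.7 to 49.4 in T and 99.5 to 102 in L. Of these, 7 were called lower and 1 higher in T, and likewise in L, than in C. In that list S100b went against the sum, at 5.66 to 6.75 TPM in C, 18.0 to 20.4 in T and 9.58 to 11.3 in L. Neuronal markers (3 of 6 tested) summed to 250.0 to 259 TPM in C, 43.5 to 46.9 in T and 61.4 to 64.1 in L, and Rbfox3 and Snap25 were at 0 in every T and L library. Macrophage markers (10 of 12 tested) summed to 196 to 213 TPM in C, 299 to 308 in T and at most 107 in any L library. Lyz2 was most of this sum. From C to T, 3 of these markers were called down and 2 up, and from C to L all 10 were called down. C1qa stood at 14.6 to 16.0 TPM in C and 11.8 to 12.6 in T. C1qb stood at 6.41 to 8.59 and 3.84 to 4.24, and C1qc at 12.2 to 15.45 and 7.67 to 9.92. Endothelial markers (5 of 9 tested, Cldn5 at 0 throughout) ran from 105 to 117 TPM in C, 48.8 to 49.5 in T and 59.2 to 63.4 in L, and mural markers (6 of 8 tested) from 578 to 602, 309 to 325 and 381 to 392. Cdh5 was most of the endothelial sum (79.3 to 89.4 TPM in C, 42.7 to 43.6 in T and 52.9 to 56.5 in L). Tek ran the other way, at 1.94 to 2.48 TPM in C, 3.70 to 4.70 in T and 4.32 to 4.55 in L. Astrocyte and ependymal markers (8 of 8 tested) summed to 114 to 124 TPM in C, 174 to 178 in T and 42.6 to 47.1 in L, and oligodendrocyte lineage markers (6 of 8 tested) to 120.1 to 124, 74.5 to 88.4 and 104 to 115. Epithelial and arachnoid barrier markers (3 of 6 tested) stood at 26.7 to 29.3 TPM in C, 174 to 188 in T and 70.8 to 76.5 in L, with Krt19 and Cldn11 the highest in T and L and Krt8 at 0 in C and T. Erythroid markers summed to at most 2.11 TPM, with Hbb-bt and Slc4a1 at 0. Mitochondrially encoded transcripts, which vary with RNA quality, summed to 40430 to 52820 TPM in C, 41660 to 54390 in T and 56990 to 60140 in L. S100b, Sox10 and Cspg4 each stand in 2 of these lists. The part that these marker differences play in the results was not tested. In bulk RNA, fewer cells of a type and less RNA per cell cannot be told apart.

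Antioxidant transcripts were most abundant in C. Their summed level was 8958 ± 118 TPM in segment C, 7044 ± 243 in T and 6566 ± 238 in L (mean ± SD of 3 libraries), and the 3 C libraries lay above the other 6 without overlap. Of the 55 genes, 44 reached the level needed for testing, which was a TPM of 1 or more in 3 or more libraries. Gsta1 and Gsta3 reached it in the 3 C libraries alone, and Gsto2 in these and in 1 library each of T and L, so these genes were tested only because of the segment where they are high. By the edgeR quasi-likelihood test at an adjusted p of 0.05, 25 (56.8%) were lower and 8 (18.2%) higher in T than in C, where 25.2% and 25.8% of all 12553 tested genes were. For L against C, 27 (61.4%) were lower and 8 (18.2%) higher, against 25.2% and 24.4% of all tested genes. Both comparisons use the same C libraries. Among genes with a TPM of 1 or more in all 9 libraries, which leaves out Gsta1, Gsta3, Gsto2 and Gstm6, 24 members were lower and 8 higher in T than in C, and 24 and 8 in L. The shares of all genes under that filter are not given here, so these counts are not set against them. T replicate 1 was the most distant from its replicates, and without it 27 were lower and 7 higher in T than in C. On leaving out any 1 library, 2689 to 3441 of all 12553 tested genes were lower and 2740 to 3517 higher in T than in C. Over the tested members the median log2 difference was -0.44 for T against C and -0.49 for L against C, and over all tested genes it was 0.02 and 0.01.

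Changes of at least 2-fold were also mostly decreases. In T, 8 genes (18.2%) were at least 2-fold lower than in C and 1 (2.27%), Gstt1, was at least 2-fold higher, against 7.22% and 5.92% of all tested genes. In L, 12 genes (27.3%) were at least 2-fold lower than in C and 1 (2.27%), again Gstt1, at least 2-fold higher, against 6.93% and 5.57%. Gsta1, Gsta3 and Gsto2 are in both counts of falls and were tested only because of their level in C, so these shares only describe the set. Among genes with a TPM of 1 or more in all libraries, 6 members were at least 2-fold lower in T and 10 in L. For these counts, too, the shares of all genes under that filter are not given here. T and L were closer to each other: 7 genes (15.9%) were lower and 2 (4.55%) higher in L than in T, against 8.21% and 7.88% of all tested genes, with a median log2 difference of -0.08 over members and -0.0025 over all genes. Of the 44, 1 (Nqo1) fell at least 2-fold from T to L and 0 rose as much, where 2.47% and 1.84% of all tested genes did. The F test over the 3 segments called 36 of the 44 genes (81.8%), against 55.9% of all tested genes. In limma on log2(TPM + 1), where the median gene moved by 0.13 for T and 0.10 for L against C, T had 4110 genes above C and 2214 below it, where edgeR gave 3240 and 3169, and L had 3737 above C and 2246 below it, where edgeR gave 3064 and 3166. The members then stood at 10 higher and 23 lower in T, and at 11 and 23 in L.

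**Figure D1:**
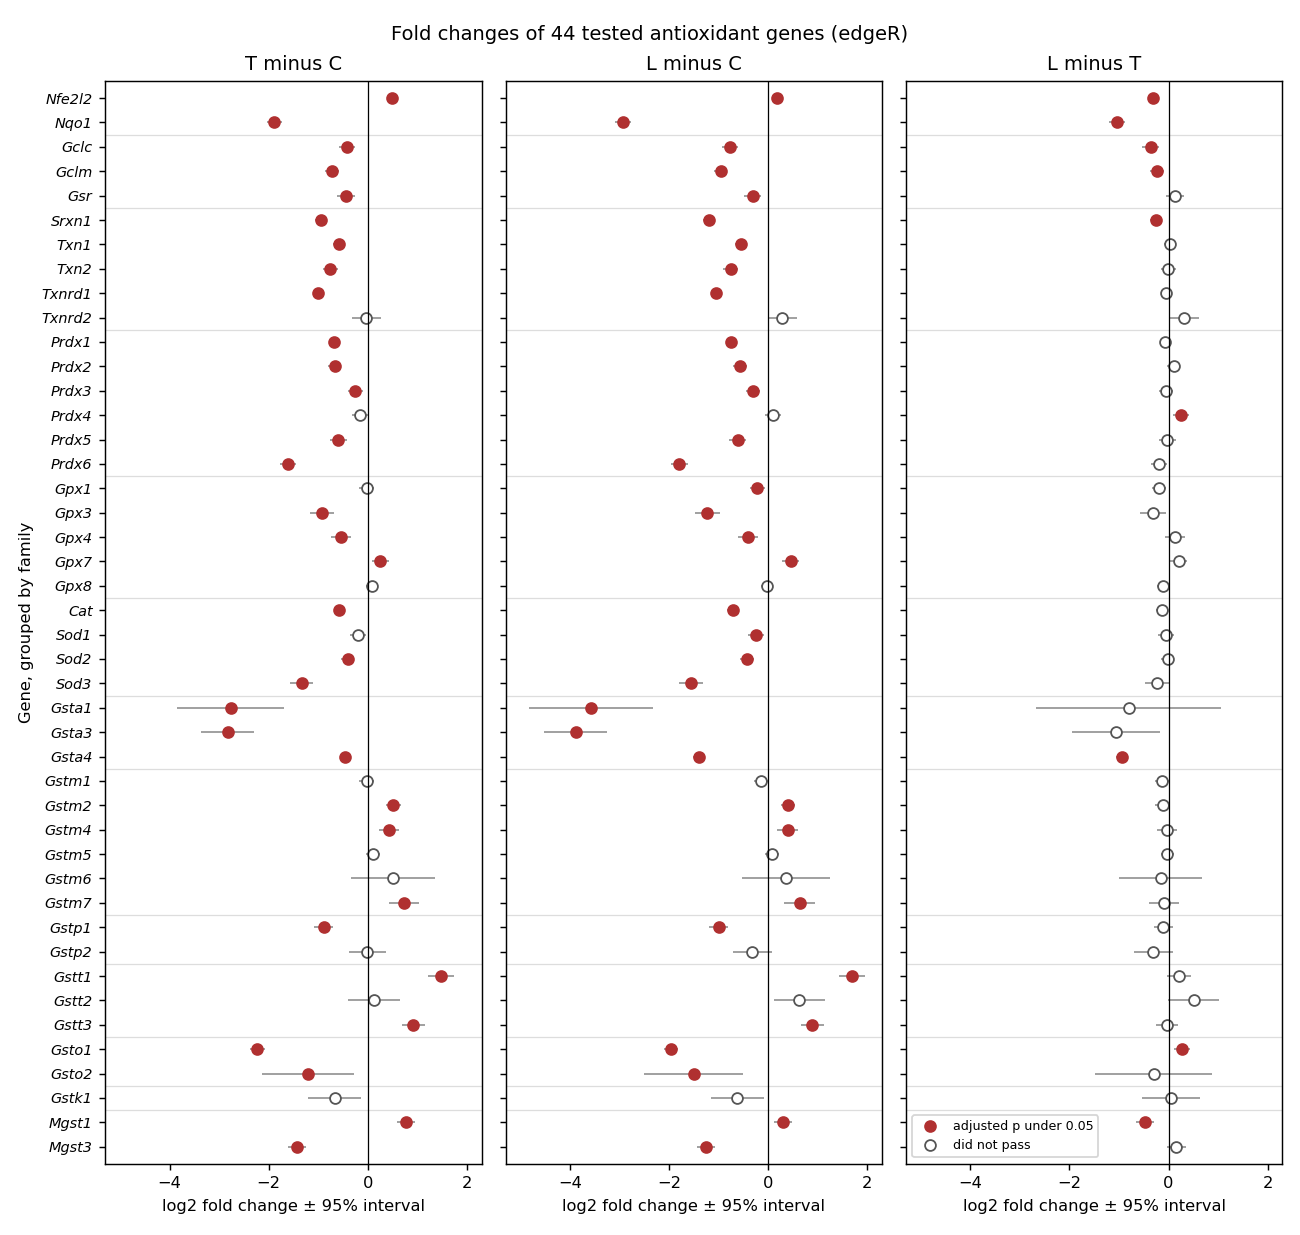
log2 fold changes from edgeR with 95% intervals for the 44 tested genes, ordered by family, for T and L against C and for L against T; filled points passed an adjusted p of 0.05 and open points did not. Most points of the first and second panels lie left of 0 (25 and 27 genes lower), while the points of the third panel gather around 0.

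Nqo1, a quinone reductase widely used as a readout of Nrf2 activity, had the largest fall from C to L of the 44 tested members apart from the low-level Gsta1 and Gsta3. Its level was 278, 292 and 280.0 TPM in the C libraries, 91.0, 80.8 and 78.7 in T and 38.8, 39.4 and 41.8 in L. All 3 segments were separated, in the order C, T, L. It fell 3.70-fold from C to T (log2 -1.89, SE 0.079, adjusted p = 2.82e-10), 7.60-fold from C to L (-2.93, SE 0.084, adjusted p = 1.37e-11) and 2.06-fold from T to L (-1.04, SE 0.083, adjusted p = 1.03e-06, edgeR). Without T replicate 1 the decline from T to L was under 2-fold, so that no member then passed that limit. The transcript of Nfe2l2 moved the other way. It was measured at 141, 138 and 141 TPM in C libraries, 203, 227 and 217 in T and 175, 178 and 160.5 in L, again with no overlap between segments. The T libraries were the highest and the C libraries the lowest. By the edgeR test Nfe2l2 rose 1.41-fold from C to T (log2 0.50, SE 0.055, adjusted p = 4.94e-06) and 1.14-fold from C to L (0.18, SE 0.055, adjusted p = 0.014), and fell 1.24-fold from T to L (adjusted p = 0.00113). The rise in L was lost without L replicate 1 (adjusted p = 0.0589), and over the 19 alternatives its adjusted p in edgeR, DESeq2 or limma ranged from 0.00217 to 0.0589.

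**Figure D2:**
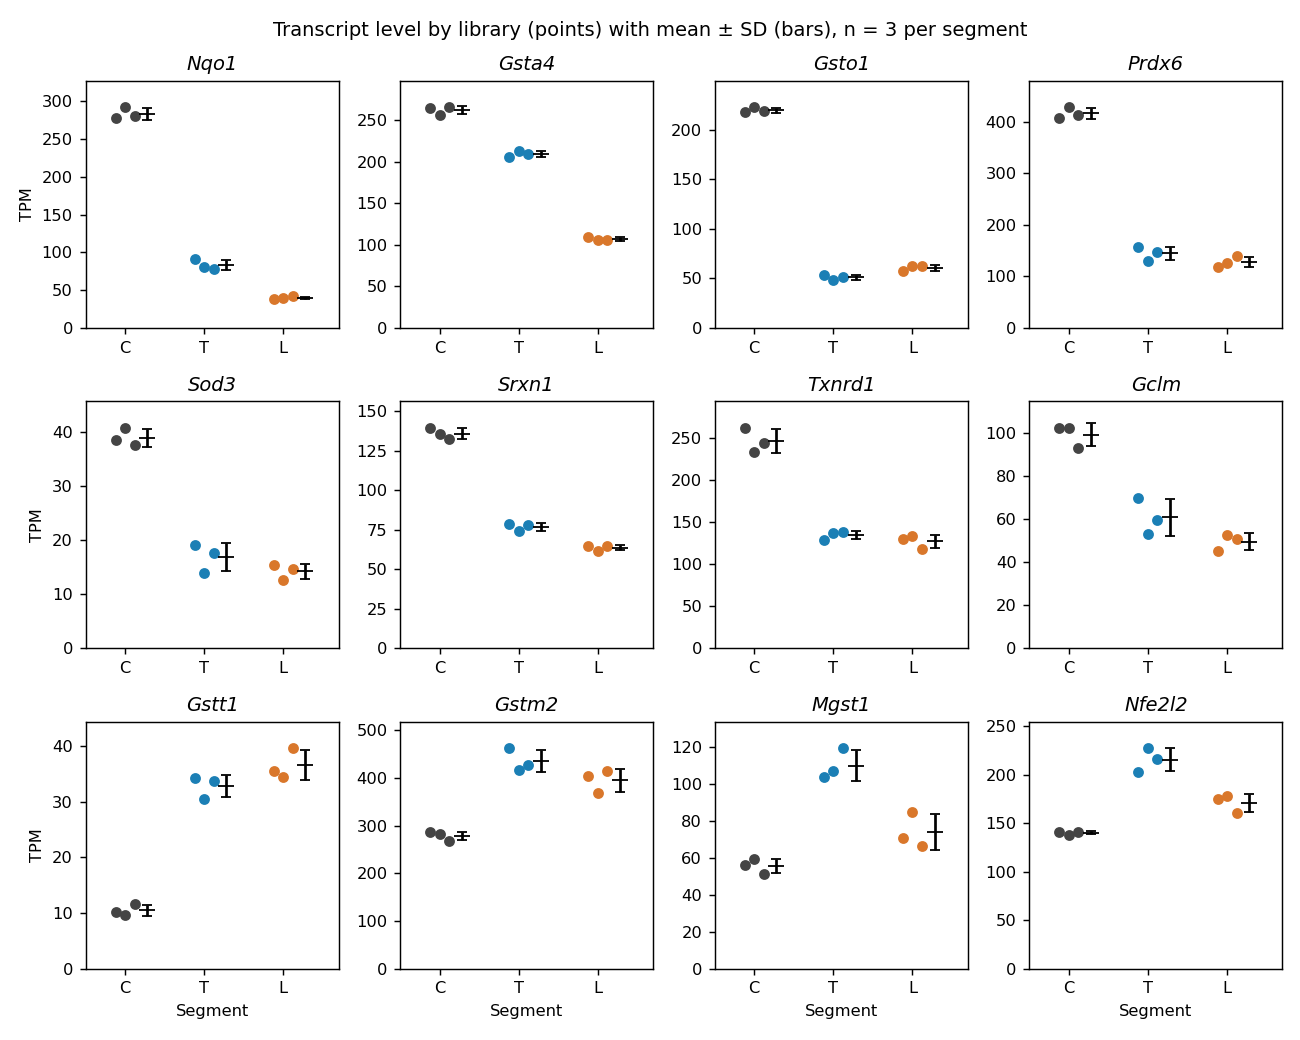
Levels of 12 genes in TPM in each library (points) with the mean and SD of each segment (bars, n = 3), every axis starting at 0. In the 8 genes of the first and second rows every C library lies above every T and L library, and in the 4 genes of the third row every C library lies below them.

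All 3 genes for making and recycling glutathione were lower in T and in L than in C. Gclm, the modifier subunit of glutamate-cysteine ligase, was at 102, 102 and 93.0 TPM in C libraries, 69.7, 53.0 and 59.6 in T and 45.3, 52.8 and 50.6 in L. All T and L libraries lay below C, and the lowest T library was just above the highest L library. Gclm fell 1.65-fold in T (log2 -0.72, SE 0.069, adjusted p = 1.25e-06) and 1.94-fold in L (-0.96, SE 0.07, adjusted p = 1.01e-07) against C in edgeR. From T to L it fell 1.18-fold (adjusted p = 0.0369, edgeR), a call that was lost without any 1 of 7 libraries, all but C replicate 1 and T replicate 1, with an adjusted p from 0.0531 to 0.159. The call was also lost in all 3 limma fits. Over its 19 alternatives that adjusted p ranged from 0.016 to 0.159. The catalytic subunit Gclc was at 51.6 ± 1.91 TPM in segment C, 42.3 ± 3.21 in T and 32.5 ± 4.02 in L (mean ± SD of 3 libraries), and all 3 contrasts passed as decreases, with L against T at log2 -0.36 (SE 0.083, edgeR adjusted p = 0.00842). Glutathione reductase, Gsr, fell from 28.5 ± 2.94 TPM in C to 23.0 ± 0.790 in T and 24.7 ± 2.30 in L. Its change in L (log2 -0.31, edgeR adjusted p = 0.0114) was lost without C replicate 1 (0.0765) or L replicate 1 (0.0619), and the adjusted p ranged from 0.00696 to 0.105 over 19 alternatives. Both limma fits on uncentred log2 TPM also ended this call.

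Of the 5 genes of the thioredoxin system, 4 were lower in both T and L than in C. Txn1, cytosolic thioredoxin and the most abundant of them, was at 288, 266 and 285 TPM in C libraries, 188, 216 and 210.5 in T and 209, 205 and 201 in L. The C libraries stood above all others, while T and L overlapped. Txn1 fell 1.49-fold in T (log2 -0.57, SE 0.062, adjusted p = 3.82e-06) and 1.47-fold in L (-0.55, SE 0.062, adjusted p = 6.52e-06, edgeR). Txnrd1, the cytosolic selenoprotein that reduces it, was at 262, 233 and 244 TPM in C libraries, 129, 136 and 138 in T and 129, 134 and 118 in L. Here too C stood apart and T and L overlapped. Txnrd1 fell 2.00-fold in T (log2 -1.0, SE 0.058, adjusted p = 7.35e-09) and 2.06-fold in L (-1.04, SE 0.058, adjusted p = 6.89e-09) in edgeR. Txnrd1 overlaps Eid3 in the annotation, and whether counting used strand is not given in the sources used here, so its value is uncertain to that extent. Srxn1, sulfiredoxin, which repairs over-oxidised peroxiredoxins, had 139.6, 136 and 133 TPM in C libraries, 79.0, 74.1 and 78.0 in T and 64.9, 61.8 and 64.9 in L. The 3 segments did not overlap. Srxn1 fell 1.93-fold in T (log2 -0.94, SE 0.064, adjusted p = 3.62e-08) and 2.29-fold in L (-1.20, SE 0.065, adjusted p = 5.1e-09, edgeR). Its further 1.19-fold fall from T to L (edgeR adjusted p = 0.017) was lost without T replicate 3 (0.0666), L replicate 1 (0.0551) or L replicate 2 (0.0656), with a range of 0.00636 to 0.0666 over 19 alternatives. The mitochondrial thioredoxin Txn2 went from 231 ± 7.95 TPM to 150.1 ± 8.82 and 147 ± 7.63, a decrease that passed in T and in L against C. Txnrd2, the mitochondrial reductase, passed in no contrast, at 7.68 ± 0.849, 8.48 ± 1.47 and 10.1 ± 1.71 TPM in C, T and L.

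Peroxiredoxins made up the largest family sum, 3137 ± 20.4 TPM in segment C, 2087 ± 61.4 in T and 2079 ± 62.7 in L (mean ± SD of 3 libraries). Of the 6 tested members, 5 were lower in both T and L than in C. Prdx1, an abundant cytosolic peroxiredoxin and the most abundant gene of the whole set, was at 1500.0, 1475 and 1518 TPM in C libraries, 1045, 1044 and 997 in T and 1017, 953 and 996 in L. C lay above the other libraries, and T and L overlapped. Prdx1 fell 1.60-fold in T (log2 -0.68, SE 0.051, adjusted p = 1.16e-07) and 1.67-fold in L (-0.74, SE 0.051, adjusted p = 5.9e-08) in edgeR. The largest fall in the family was that of Prdx6, the peroxiredoxin with a single reactive cysteine, which relies on glutathione and also has phospholipase activity. Its level was 408, 428 and 414 TPM in C libraries, 157, 131 and 148 in T and 119, 125 and 139 in L. Every C library was more than 2-fold above every other library, and T and L overlapped. Prdx6 fell 3.04-fold in T (log2 -1.60, SE 0.083, adjusted p = 2.34e-09) and 3.46-fold in L (-1.79, SE 0.084, adjusted p = 1.24e-09) by the edgeR test. Prdx2, cytosolic, went from 690.1 ± 23.3 TPM in C to 470.1 ± 19.5 in T and 498 ± 27.2 in L, and Prdx5, found in mitochondria and peroxisomes, from 265 ± 6.35 to 189 ± 18.6 and 184 ± 16.7. Prdx5 overlaps Trmt112, which makes its count uncertain. The mitochondrial Prdx3 fell less, from 98.1 ± 4.08 TPM to 90.0 ± 4.17 in T and 85.7 ± 8.44 in L (log2 -0.25 and -0.30, edgeR adjusted p = 0.0128 and 0.00451). Its call in T was lost without C replicate 1 (0.0745) or C replicate 2 (0.0501) and in both limma fits on uncentred log2 TPM, which also ended the call in L, with ranges of 0.00512 to 0.199 and 0.001 to 0.0531 over 19 alternatives. Prdx4, the peroxiredoxin of the endoplasmic reticulum, passed in neither T nor L against C. At 169 ± 6.78, 165 ± 14.5 and 195 ± 9.10 TPM, it was higher in L than in T by log2 0.26 (SE 0.083, edgeR adjusted p = 0.0491). That call held without T replicate 1 but was lost without each of the other 8 libraries, at adjusted p from 0.0581 to 0.172, and it ranged from 0.00602 to 0.172 over 19 alternatives.

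Of the 5 tested glutathione peroxidases, 2 were lower and 1 higher in T, and 3 lower and 1 higher in L, than in C, and the family sum was 1804 ± 53.6 TPM in segment C, 1737 ± 98.2 in T and 1653 ± 105 in L. Gpx1, the ubiquitous cytosolic enzyme, had the highest mean over all libraries, at 634, 691 and 642 TPM in C libraries, 747, 644 and 718 in T and 614, 572 and 665 in L. The 3 segments overlapped. Gpx1 did not pass in T (log2 -0.02, SE 0.075, edgeR adjusted p = 0.821) and was 1.16-fold lower in L than in C (-0.22, SE 0.076, adjusted p = 0.0293). The call in L was lost without C replicate 1 (0.0502), C replicate 2 (0.13), L replicate 1 (0.103) or L replicate 2 (0.117), and its adjusted p ranged from 0.00652 to 0.325 over 19 alternatives. All 3 limma fits and scaling by library totals also ended it. Gpx3, the secreted enzyme, was at 55.6, 57.7 and 59.5 TPM in C libraries, 40.4, 28.6 and 40.1 in T and 25.4, 28.7 and 28.9 in L. C stood above the rest, while T replicate 2 lay within the L range. Gpx3 fell 1.89-fold in T (log2 -0.92, SE 0.13, adjusted p = 3.75e-05) and 2.35-fold in L (-1.23, SE 0.13, adjusted p = 3.35e-06, edgeR). Gpx4, which reduces lipid peroxides in membranes and restrains ferroptosis, fell from 692 ± 28.4 TPM to 523 ± 63.4 in T and 554 ± 54.0 in L, with both contrasts against C called. Gpx7, an enzyme of the endoplasmic reticulum, rose from 85.7 ± 1.82 TPM to 116 ± 7.0 in T and 126 ± 9.58 in L. On counts the rise in T was log2 0.25 (edgeR adjusted p = 0.0296) and was lost without C replicate 1 (0.0596), C replicate 3 (0.0542) or T replicate 1 (0.0846), with a range of 0.000347 to 0.0846 over 19 alternatives. Gpx8, also of the endoplasmic reticulum and overlapping Cdc20b, passed in no contrast, at 313 ± 9.08, 359 ± 32.7 and 328 ± 5.05 TPM.

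Catalase and all 3 superoxide dismutases were lower in L than in C. Sod1, which removes superoxide in the cytosol, was the most abundant, at 484, 508 and 474 TPM in C libraries, 506, 452 and 434 in T and 442, 420.2 and 464 in L. The L libraries lay below C, and T overlapped with both. Sod1 did not pass in T (log2 -0.20, SE 0.079, adjusted p = 0.0503, edgeR) and was 1.19-fold lower in L (-0.25, SE 0.08, adjusted p = 0.0198). That fall was lost without C replicate 2 (0.0854), L replicate 1 (0.0607) or L replicate 2 (0.0799), over a range of 0.00373 to 0.0858 in 19 alternatives. Both uncentred limma fits and scaling by library totals also ended it. The extracellular enzyme Sod3, which binds matrix, was at 38.5, 40.8 and 37.5 TPM in C libraries, 19.1, 14.0 and 17.6 in T and 15.3, 12.6 and 14.7 in L. C stood well above the other libraries, and T and L overlapped. Sod3 fell 2.51-fold in T (log2 -1.33, SE 0.12, adjusted p = 5.62e-07) and 2.94-fold in L (-1.55, SE 0.12, adjusted p = 1.69e-07) in edgeR. Catalase, Cat, a peroxisomal enzyme that breaks down hydrogen peroxide, went from 174 ± 7.50 TPM in C to 127 ± 8.08 in T and 114 ± 1.52 in L. Mitochondrial Sod2 went from 31.1 ± 0.927 to 25.3 ± 1.13 and 24.5 ± 1.39. Both were called lower in T and in L than in C.

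The glutathione S-transferases split by family. The alpha gene Gsta4 and the omega gene Gsto1 were called lower in T and L than in C. Theta and mu genes were called higher or did not pass, and the pi gene Gstp1 was lower. Gsta1, Gsta3 and Gsto2, tested only because of their level in C, are left out of this split. Members of a family have similar sequences and lie beside each other (Gstm5, Gstm7, Gstm6, Gstm3, Gstm2, Gstm1 and Gstm4 in a row, Gstt3, Gstt1, Gstt4 and Gstt2 in another), so reads may have been split between them, and single values are uncertain where the family holds near-identical copies. The family sums are less affected by such splitting within a family.

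**Figure D3:**
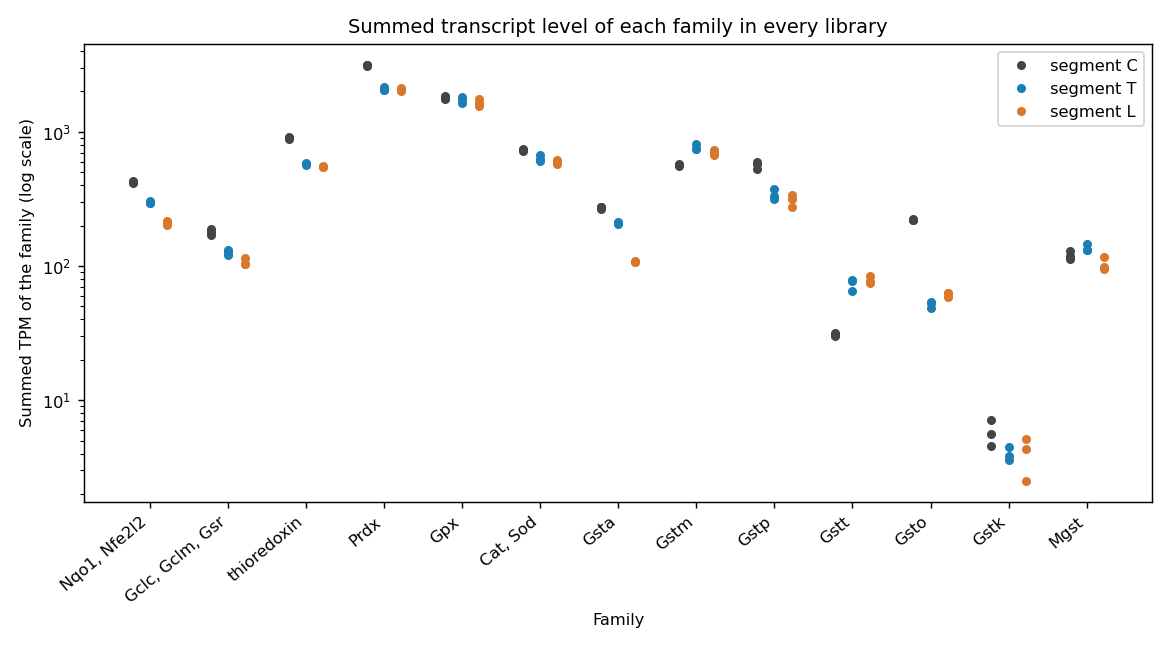
Summed TPM of each family in every library on a log axis (3 points per segment). The Gstt sum lies higher in T and L (65.4 to 84.0 TPM) than in C (30.1 to 31.9), the Gsto sum lies lower (49.0 to 63.0 against 219.7 to 224), and the Gsta sum falls from C through T to L.

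Among alpha-class genes, Gsta4, whose enzyme favours the lipid peroxidation product 4-hydroxynonenal, carried nearly the whole family sum. It was at 264, 256 and 265 TPM in C libraries, 206, 213 and 209 in T and 109, 106 and 106 in L. The 3 segments were separated with little spread inside each. Gsta4 fell 1.37-fold from C to T (log2 -0.45, SE 0.057, adjusted p = 1.96e-05), 2.63-fold from C to L (-1.40, SE 0.059, adjusted p = 5.02e-10) and 1.93-fold from T to L (-0.95, SE 0.059, adjusted p = 1.18e-07, edgeR). Gsta3, a transferase also known for steroid isomerase activity, was far lower, at 6.25, 6.43 and 4.71 TPM in C libraries, 0.864, 0.655 and 0.958 in T and 0.241, 0.380 and 0.912 in L. C did not overlap with T or L, which rest on 26 and 11 counts over 3 libraries against 203 in C. The fitted difference from C was log2 -2.82 in T (SE 0.27) and -3.88 in L (SE 0.32). It is given without a test, because Gsta3 passed the level filter through the C libraries alone. Gsta1 was at 2.58, 3.51 and 3.21 TPM in C libraries, 0.799, 0.409 and 0.281 in T and 0, 0 and 0.700 in L, from 77, 10 and 5 counts. Again C stood above both other segments, and 2 of the L libraries were at 0. Gsta1 too passed the filter through C alone, and its fitted difference from C, log2 -2.76 in T (SE 0.55) and -3.57 in L (SE 0.64), is likewise a description. Without L replicate 3 the remaining L libraries are at 0, and the fitted value of -7.54 is then no measure of size. Gsta2 (8 counts in C) and Gsta5 (9 counts in C) had 0 counts in T and in L and were too low for the test. Against a floor of 3 counts over a segment, C was at least 2.33-fold higher than T and at least 2.1-fold higher than L for Gsta2, and at least 2.62-fold and 2.36-fold higher for Gsta5.

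Omega-class Gsto1, which reduces dehydroascorbate and arsenic species, had a larger fall from C to T than any other tested member apart from Gsta1 and Gsta3. Its level was 217, 222 and 218 TPM in C libraries, 53.3, 48.1 and 51.6 in T and 57.0, 62.2 and 62.5 in L. The L libraries lay just above the T libraries, and both were far below C. Gsto1 fell 4.69-fold in T (log2 -2.23, SE 0.077, adjusted p = 3.83e-11) and 3.88-fold in L (-1.96, SE 0.076, adjusted p = 1.99e-10) against C by edgeR. The 1.21-fold higher level in L than in T (adjusted p = 0.0317, edgeR) was lost without T replicate 2 (0.117), T replicate 3 (0.0918), L replicate 2 (0.0714) or L replicate 3 (0.102), over a range of 0.0117 to 0.117 in 19 alternatives. Its neighbour Gsto2, also a dehydroascorbate reductase, was at 2.58, 1.40 and 1.22 TPM in C libraries, 0.500, 0.883 and 1.03 in T and 1.40, 0.276 and 0.480 in L, from 63, 25 and 18 counts. C and T did not overlap, and 1 L library lay within the C range. The gene was tested only because of its level in C, so its weak calls are a description. They were log2 -1.21 in T (SE 0.47, edgeR adjusted p = 0.0478) and -1.50 in L (SE 0.51, adjusted p = 0.0256). In T the call was lost without C replicate 1 (0.21), C replicate 2 (0.0694), any T library (0.0636 to 0.115) or L replicate 3 (0.0583), over 0.0302 to 0.21 in 18 alternatives. DESeq2 and both uncentred limma fits also ended the call in T. In L it was lost without C replicate 1 (0.117), L replicate 2 (0.0917) or L replicate 3 (0.0913), over 0.00829 to 0.117, and without L replicate 1 the value was log2 -2.29.

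Of the 3 tested theta-class genes, 2 rose. Gstt1, a conjugating enzyme that also acts on halogenated small molecules, was at 10.2, 9.58 and 11.6 TPM in C libraries, 34.3, 30.5 and 33.7 in T and 35.4, 34.5 and 39.5 in L. All C libraries lay below all others, and every L library was above every T library. Gstt1 rose 2.79-fold in T (log2 1.48, SE 0.13, adjusted p = 7.04e-07) and 3.23-fold in L (1.69, SE 0.13, adjusted p = 2.12e-07), while L against T did not pass (adjusted p = 0.297, edgeR). Its neighbour Gstt3 was at 17.0, 17.2 and 14.7 TPM in C libraries, 39.1, 31.8 and 38.9 in T and 35.6, 34.5 and 36.0 in L. C stood below, and T and L overlapped. It rose 1.90-fold in T (log2 0.92, SE 0.12, adjusted p = 1.85e-05) and 1.85-fold in L (0.89, SE 0.12, adjusted p = 3.05e-05, edgeR). Gstt2 passed in no contrast, at 4.07 ± 0.738, 4.57 ± 1.31 and 6.55 ± 1.66 TPM.

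Mu-class genes, which conjugate a wide range of electrophiles, summed to 567 ± 9.58 TPM in segment C, 768 ± 38.6 in T and 705 ± 34.3 in L. Gstm2, the most abundant, was at 286, 281 and 269 TPM in C libraries, 462, 418 and 426 in T and 404, 368 and 414 in L. C lay below both other segments, and every T library was above every L library. Gstm2 rose 1.43-fold in T (log2 0.52, SE 0.074, adjusted p = 5.76e-05) and 1.3-fold in L (0.40, SE 0.074, adjusted p = 0.000566), while L against T did not pass (adjusted p = 0.351, edgeR). Gstm4 rose from 16.7 ± 1.52 TPM in C to 24.3 ± 1.96 in T and 23.0 ± 1.40 in L, and Gstm7 from 7.33 ± 1.26 to 13.2 ± 2.38 and 11.4 ± 1.78. The Gstm7 call in L was lost in limma on median-centred values (adjusted p = 0.0575, range 0.00195 to 0.0575 over 19 alternatives). Gstm1 (159 ± 4.17, 171 ± 11.4 and 154 ± 8.43 TPM), Gstm5 (105 ± 4.87, 123 ± 2.17 and 119 ± 2.98 TPM) and Gstm6 (0.708 ± 0.271, 1.42 ± 0.657 and 1.30 ± 0.230 TPM) passed in no contrast.

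Of the pi, kappa and microsomal transferases, Gstp1, the most abundant transferase of the set in C, was at 554, 574 and 506 TPM in C libraries, 353, 294 and 314 in T and 304, 260.5 and 315 in L. C stood above all others, and T and L overlapped. Gstp1 fell 1.85-fold in T (log2 -0.89, SE 0.098, adjusted p = 5.12e-06) and 1.99-fold in L (-1.0, SE 0.099, adjusted p = 2.09e-06, edgeR). Gstp2, its neighbouring close copy, passed in no contrast, at 19.8 ± 0.747, 21.6 ± 3.27 and 16.6 ± 5.01 TPM. The mitochondrial and peroxisomal Gstk1 was low, at 4.54, 5.59 and 7.08 TPM in C libraries, 4.51, 3.59 and 3.83 in T and 2.51, 4.31 and 5.14 in L. C lay above T with little to spare and overlapped with L. Gstk1 did not pass in T (log2 -0.67, SE 0.27, adjusted p = 0.0532) or in L (-0.62, SE 0.27, adjusted p = 0.0749) against C in edgeR.

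Both microsomal transferases that could be tested changed, in opposite directions. Mgst1, a membrane enzyme with transferase and peroxidase activity, was at 56.2, 59.4 and 51.5 TPM in C libraries, 104, 107 and 119.5 in T and 70.9, 85.1 and 66.7 in L. The 3 segments did not overlap, with T the highest and C the lowest. Mgst1 rose 1.71-fold in T (log2 0.77, SE 0.093, adjusted p = 1.21e-05) and 1.23-fold in L (0.30, SE 0.095, adjusted p = 0.0195) and fell 1.39-fold from T to L (adjusted p = 0.00277, edgeR). Its rise in L was lost without C replicate 3 (0.0666) or L replicate 2 (0.0907), over 0.00488 to 0.0907 in 19 alternatives. Mgst3, a related membrane enzyme, was at 62.0, 69.5 and 61.6 TPM in C libraries, 27.3, 24.9 and 26.4 in T and 27.8, 31.0 and 27.9 in L. Every C library stood far above the others, and every L library lay above every T library. Mgst3 fell 2.68-fold in T (log2 -1.42, SE 0.092, adjusted p = 2.37e-08) and 2.40-fold in L (-1.26, SE 0.092, adjusted p = 1.03e-07), and L against T did not pass (adjusted p = 0.335, edgeR).

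Across families, 33 genes were called in the same direction in T and in L against C and 0 in opposite directions; both contrasts use the same C libraries. A fall in both steps, from C to T and from T to L, was called for 5 genes: Gclc, Gclm, Gsta4, Nqo1 and Srxn1. A rise in both was called for 0. There were 8 tested genes that were called in none of the 3 contrasts (Gpx8, Gstk1, Gstm1, Gstm5, Gstm6, Gstp2, Gstt2 and Txnrd2). Shares over all tested genes were not counted for these patterns, so the counts cannot be read as particular to the set. The other 11 genes were not tested. Gpx2, Gpx5, Gpx6, Gstp3, Gstt4 and Prdx6b had 0 counts in every library, and Gsta2, Gsta5, Gsta13, Gstm3 and Mgst2 had at most 9 counts in any segment. For Mgst2 the ratio of C over T was 2.62 from 3 against 1 counts, with an exact 95% counting interval of 0.210 to 138, and that of L over T was 3.32 (0.267 to 175). The ratio of Gsta13 in C over L was 1.58 from 2 against 1 counts (0.0820 to 93.0), and Gstm3 had 1 count, in C.

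In the rest of the pathway, 131 tested genes in 6 lists, more genes were lower than higher in each contrast, but not in each list. In edgeR, 62 were lower and 29 higher in T than in C, 59 lower and 23 higher in L than in C, and 19 lower and 7 higher in L than in T, with median log2 differences of -0.20, -0.18 and -0.01. Over all tested genes 25.2% were lower and 25.8% higher in T than in C, 25.2% and 24.4% in L than in C, and 8.21% and 7.88% in L than in T, and each list's counts are to be read against these shares. In limma on log2(TPM + 1) the counts were 47 lower and 35 higher in T, and 44 and 33 in L, against C. Among 19 genes that supply NADPH, 12 were lower and 4 higher in T, and 11 lower and 2 higher in L, than in C, and 1 was lower and 3 higher in L than in T. Aldh1l2, a mitochondrial folate enzyme, fell 5.07-fold in T and 3.14-fold in L, from 13.4 ± 0.431 TPM in C. Me3, a mitochondrial malic enzyme, fell 3.12-fold and 3.14-fold, Taldo1, transaldolase of the pentose phosphate pathway, 1.95-fold and 2.03-fold, and Aldh1l1 2.13-fold and 2.02-fold. Aldh1l1 is also an astrocyte marker and 1 of the 8 of that list. The sum of the list was highest in T, where Gfap was most of it (102 to 112 TPM). Of its genes 5 were called higher in T than in C and 3, with Aldh1l1 among them, lower.

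Of 27 Nrf2 regulators and further targets, 15 were lower and 5 higher in T, and 15 lower and 3 higher in L, than in C, and 7 were lower and 2 higher in L than in T. With median-centred log2(TPM + 1) in limma, 16 were lower and 1 higher in L than in C. Aldh1a1, which makes retinoic acid, went from 70.5 ± 4.71 TPM in C to 37.0 ± 3.65 in T and 6.95 ± 0.681 in L, 11.5-fold lower in L than in C. The small Maf protein Maff, a DNA-binding partner of Nrf2, fell 2.02-fold in T and 2.92-fold in L, and the exporter Abcc4 fell 2.21-fold and 3.61-fold. Aldh3a1, an aldehyde dehydrogenase, rose 1.31-fold in T and fell 1.92-fold in L. In glutathione metabolism outside the set (28 tested), 12 were lower in T and 12 in L, and 7 and 5 higher, than in C, and in L against T 1 was lower and 0 higher. In limma on log2(TPM + 1), 10 were higher and 9 lower in L than in C. Esd, which splits S-formylglutathione, fell from 1446 ± 29.6 TPM to 522 ± 34.2 and 467 ± 11.7, 3.03-fold and 3.33-fold. Cth, which makes cysteine, fell 1.95-fold in T and 1.54-fold in L, a call in L that was lost without C replicate 1 (0.12), L replicate 1 (0.0692) or L replicate 3 (0.0572), over 0.00917 to 0.12 in 19 alternatives. Limma on log2(TPM + 0.1) also ended that call (0.0557). Ggact, which releases modified lysine from cross-linked protein, rose 1.89-fold and 1.99-fold. Ggt5, at most 1.48 TPM in any library, rose 2.26-fold in L, a call lost in all 3 limma fits and without C replicate 3 (0.072) or L replicate 3 (0.074), with adjusted p from 0.0115 to 0.981 over 18 alternatives.

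Thioredoxin partners, methionine sulfoxide reductases and metallothioneins (25 tested) had 12 genes lower and 5 higher in T, 9 and 5 in L, against C, and 5 lower and 1 higher in L against T. In limma on log2(TPM + 1) there were 9 lower and 7 higher in T, and 9 and 8 in L. Mt2, a metal-binding metallothionein, fell 1.38-fold and 2.06-fold, and Mt3, known from neural tissue, 4.85-fold and 18.1-fold, from 12.2 ± 0.856 TPM in C to 2.77 ± 1.56 and 0.664 ± 0.442. The sum of the neuronal markers, in C mostly Stmn2 and Tubb3, was also lower in T and in L than in C. Map2 overlapped between the segments, as given above. The part of these markers in the Mt3 result was not tested. Msrb2, a mitochondrial methionine sulfoxide reductase, fell 1.35-fold and 1.81-fold, with the call in T lost without C replicate 3 (0.054, range 0.00333 to 0.054 over 19 alternatives), and Pon3, a lactonase, rose 1.80-fold and 1.83-fold. Selenoproteins and their synthesis (20 tested) had 6 higher and 6 lower in T and 5 and 6 in L against C, and 2 lower and 0 higher in L against T, near the shares over all tested genes. In limma on log2(TPM + 1) these became 8 higher and 2 lower in T, and 7 and 2 in L. Selenop, the secreted selenium carrier, rose from 37.5 ± 0.839 TPM to 128 ± 8.69 in T and 103 ± 12.6 in L, 3.19-fold and 2.60-fold, while its receptor Lrp8 fell 1.57-fold and 1.94-fold. Selenow fell 1.33-fold and 1.55-fold, and Sepsecs, which makes selenocysteine on its tRNA, rose 1.47-fold and 1.45-fold, the latter lost without L replicate 3 (0.0511, range 0.00268 to 0.0511 over 19 alternatives). Of 12 tested oxidant sources, 5 were lower and 2 higher in T, and 6 lower and 3 higher in L, than in C, and 3 were lower and 1 higher in L than in T. In limma on log2(TPM + 1) these were 3 lower and 2 higher in T and 2 lower and 3 higher in L, and after median centring 5 were lower and 0 higher in L. The monoamine oxidase Maob fell 2.73-fold in T, and L stood 2.15-fold above T. Cybb and Ncf1, subunits of the phagocyte NADPH oxidase, reached at most 3.11 TPM in any library. The sum of the macrophage markers, mostly Lyz2, was highest in T and lowest in L, as given above. Between C and T the markers C1qa, C1qb and C1qc went against that sum. The part of the macrophage markers in this result was not tested. Ncf1 was 2.05-fold lower in L than in C, and Cybb, at 1.65 ± 1.29, 1.69 ± 0.0157 and 0.601 ± 0.101 TPM, rose 1.69-fold in T on counts and fell 1.64-fold in L. The Cybb rise was lost in all 3 limma fits, where median centring turned its sign (log2 -0.03). The Cybb fall in L was lost without C replicate 3 (0.117), L replicate 1 (0.0803) or L replicate 3 (0.0634), over 0.0139 to 0.117 in 18 alternatives. Both limma fits on uncentred log2 TPM also ended it (0.0691 and 0.0546). The fall of Ncf1 was lost without C replicate 1 (0.125), C replicate 3 (0.0841), L replicate 2 (0.0766) or L replicate 3 (0.148), over 0.00741 to 0.148 in 18 alternatives. It too was lost in both uncentred limma fits (0.0623 and 0.0652).

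**Figure D4:**
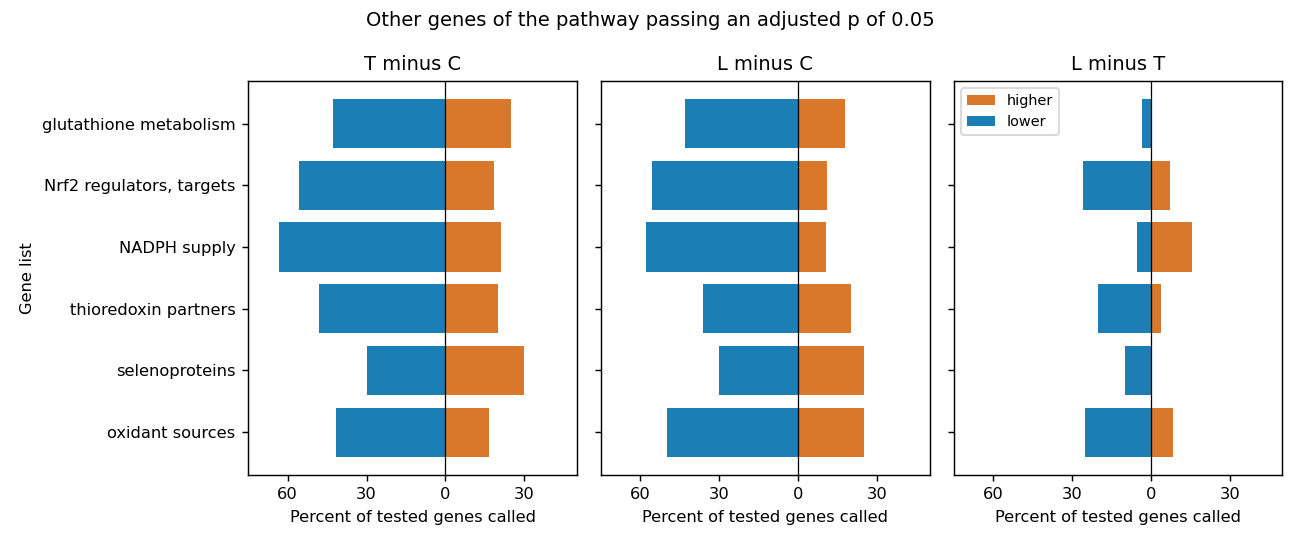
Share of each list's tested genes called lower (left of 0) and higher (right of 0) for T and L against C and for L against T, in percent, by edgeR at an adjusted p of 0.05. In T and L against C the bars to the left are longer for every list but the selenoproteins in T, where both directions hold 6 of 20 genes.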

How the data were processed

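RNA-seq of 9 libraries, 3 from each of segments C, T and L, was used as 1 deposited table of 22013 genes. Per the file headers, the authors deposited estimated counts, of which 92.7% were whole, and TPM values (a level per transcript length and library total) for each library. Libraries were prepared with a TruSeq Stranded Total RNA kit after TRIzol extraction, per the labels' protocols. Per the submitters' processing notes, the tools were HISAT2 2.2.1, StringTie 2.1.4, DESeq2 1.32.0, Trimmomatic 0.39 and FastQC 0.11.9, listed without roles, and the builds GRCm39 and GRCh38. Annotation and strand setting are not given in the sources used. For 1 L library the description names another library's column, and its title was followed.

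Estimated counts were rounded and tested with edgeR 4.0.16 (R 4.3.3) quasi-likelihood tests with TMM scaling, segment as the only term and all 9 libraries in 1 fit, for 12553 genes that reached a TPM of 1 in 3 or more libraries. Tests were two-sided, p-values were adjusted by Benjamini-Hochberg over all tested genes, and the threshold was 0.05. Fold changes come from counts and levels from TPM, and a standard error is the log2 fold change over the root of its F statistic. A floor of 3 counts over a segment and exact 95% intervals, which cover counting error only, were used for untested genes. On simulated T against C counts for 12553 genes with 200 changed, 59.7% of the changes of log2 0.5, 89.6% of those of log2 1 and 98.5% of those of log2 2 were recovered. In the data far more genes were called in T against C (3240 higher and 3169 lower). The adjustment over all genes therefore acts differently there, and these rates are not those of the data. Alternatives were DESeq2 1.42.0, limma 3.58.1 on log2(TPM + 1) or log2(TPM + 0.1), other scalings and filters, a replicate block and leaving out each library.

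The genes, gene lists and tests were chosen with earlier results of these data known. Genes with a called change of at least 2-fold, and the most abundant member of each family, are given library by library. The other members are given as means, and up to 4 genes per further list by the largest called change; 1 gene this rule names is not reported here.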

Additional observations from a re-analysis of the deposited data

How the results depend on the processing

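Of the 77 called contrasts of tested members, 62 were kept under every alternative that gave a value, 15 were lost under at least 1, and 0 changed sign. Of the 19 alternatives, a TPM of at least 1 in all libraries gave no value for Gsta1, Gsta3, Gsto2 and Gstm6. Of the 55 contrasts not called, 19 had the other sign and 16 passed the threshold under at least 1. The number of members higher in L than in T (2) was 1 with library totals, median-centred limma values or a TPM of at least 1 in all libraries, 0 in a fit of only the 2 segments or with a replicate block, and 0 to 3 on leaving out 1 library. Of the other pathway genes, those higher in L than in C (23) fell to 15 after median centring, those lower in L than in T (19) to 12 in a fit of only the 2 segments, and on leaving out 1 library the latter ranged from 11 (without T replicate 3 or L replicate 1) to 16 and those higher in L than in T (7) from 5 to 13 (without T replicate 1). All genes higher in L than in T (989) fell to 657 without T replicate 3. Members at least 2-fold higher in T than in C (1) were 2 in limma on uncentred values or without T replicate 2, and those in L (1) were 2 in uncentred limma. Counts for single lists under 10 genes often moved by over 1.5 times: over all alternatives, glutathione genes higher in L than in C ran from 4 to 10, selenoproteins lower in T than in C from 2 to 7, and oxidant sources lower in L than in C from 2 to 7. With a replicate block, 24 members were lower and 8 higher in T than in C, 27 and 9 in L than in C, and 6 and 0 in L than in T. The numbers were not taken to pair the libraries, since deviations of same-numbered libraries correlated at -0.15 to 0.29 (9 pairs) and of others at -0.38 to 0.38 (18 pairs). The following contrasts, in log2, changed sign, none of them called except Cybb. With library totals the sign changed for Gpx1 T against C (0.042), Gpx8 L against C (0.016), Gstm1 T against C (0.045), Gstp2 T against C (0.054) and Txnrd2 T against C (0.035). With limma on log2(TPM + 1), Gpx1 T against C (0.098), Gpx8 L against C (0.069), Gstk1 L against T (-0.032), Gstm1 T against C (0.10), Gstp2 T against C (0.11) and Txnrd2 T against C (0.12) changed sign. With limma on log2(TPM + 0.1), Gpx1 T against C (0.098), Gpx8 L against C (0.069), Gstk1 L against T (-0.051), Gstm1 T against C (0.10), Gstp2 T against C (0.12) and Txnrd2 T against C (0.13) changed sign. With median-centred limma, Gstk1 L against T (-0.020), Gstt2 T against C (-0.041) and Cybb T against C (-0.027) changed sign. With a fit of only the 2 segments, Gstp2 T against C (0.0022) and Txn2 L against T (0.0030) changed sign. With RLE size factors, Txn2 L against T (0.0045) changed sign. With DESeq2, Txn2 L against T (0.0049) changed sign. With no filter, Txn2 L against T (3.4e-05) changed sign. On leaving out 1 library the range crossed 0 for Gpx1 T against C (-0.072 to 0.033), Gstk1 L against T (-0.22 to 0.29), Gstm1 T against C (-0.088 to 0.036), Gstm4 L against T (-0.10 to 0.021), Gstm5 L against T (-0.056 to 0.0096), Gstm6 L against T (-0.42 to 0.13), Gstm7 L against T (-0.19 to 0.036), Gsto2 L against T (-1.09 to 0.063), Gstp2 T against C (-0.14 to 0.068), Gstt2 T against C (-0.049 to 0.36), Gstt3 L against T (-0.14 to 0.042), Prdx3 L against T (-0.11 to 0.013), Prdx5 L against T (-0.11 to 0.065), Sod1 L against T (-0.10 to 0.037), Sod2 L against T (-0.047 to 0.024), Txn1 L against T (-0.018 to 0.048), Txn2 L against T (-0.063 to 0.050) and Txnrd2 T against C (-0.12 to 0.085). The causes were not tested. With 3 libraries a segment, genes resting on few counts (Gsta1, Gsta3, Gsto2, Gstk1, Gstm6) have wide intervals, and changes of log2 0.5 can be missed.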
